A study of Mus musculus with 6 samples.

Results

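Tubular injury and dedifferentiation markers are transcripts by which damaged kidney tubules are recognised, and 10 of them were followed in the TA of MRL and LPR kidneys. The genes were Havcr1, Spp1, Clu, Vim, Krt18, Krt19, Krt20, Sox9, Cd44 and Cdkn1a, and every array probe that carried 1 of these gene names was taken, apart from control spots. This gave 16 of the 56605 probes on the array. Of the 10 genes, 6 had 1 probe, 2 had 2 probes (Clu and Sox9) and 2 had 3 probes (Cd44 and Cdkn1a). Of the 16 probes, 15 were among the 39924 probes that were tested, the condition being a signal well above background for 3 arrays or more. The remaining probe, A_55_P2718608 of Clu, was above background on 0 of 6 arrays and gave no comparison.

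The arrays held whole-kidney RNA of 3 MRL mice (MRL/MpJ) and 3 LPR mice (MRL/MpJ-Fas lpr/lpr), all female and 6 months old, with 1 array per mouse. Both strains carry the MRL/MpJ background, so the controls differ from the lupus model in the lpr mutation of Fas, the gene of a death receptor, and the mutation is present in every cell of an LPR mouse. The spread between mice is the error throughout, and 3 against 3 mice cannot give an exact p below 0.10, so the p values of single genes given here come from limma, the model fitted over all probes.

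After injury, the cells of a renal tubule can lose parts of their transport program and re-express genes of immature epithelium and of mesenchyme. They place the phosphatidylserine receptor Havcr1 (KIM-1) on their surface, secrete Spp1 (osteopontin) and Clu (clusterin), and change the keratin and vimentin filaments of their cytoskeleton. Sox9 is a transcription factor of regenerating tubule cells, Cd44 is a surface receptor for hyaluronan and osteopontin, and Cdkn1a encodes the cell cycle inhibitor p21. Several of these genes are not particular to tubules. Vim is made by leukocytes, fibroblasts and endothelium, and Cd44 is carried by most leukocytes.

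In LPR mice, 2 of the 10 genes were higher, Vim and Cd44, by all 4 of their probes, and 0 of 10 were lower (limma, adjusted p under 0.05). Among these 4, A_55_P2166488 of Cd44 was above background in 0 MRL mice and was tested through the LPR mice alone. Of all tested probes, 6.53% were higher and 6.17% lower, and of all gene names represented by their brightest probe, 7.12% were higher and 5.47% lower. The other 8 genes, with 11 tested probes, did not pass the threshold in either direction. Before adjustment, 8 of the 15 probes of the markers had a p under 0.05, against 30.4% of all tested probes. The median log2 change (LPR minus MRL) of the 15 probes was 0.38, with 12 above 0, whereas that of all tested probes was -0.14, a shift against which each change is to be read. Above this median of all tested probes lay 13 of the 15. Cd44 and Cdkn1a gave 3 probes each, and with the brightest probe of each of the 10 genes the median was 0.27. For 8 of the 15 probes every LPR mouse lay above every MRL mouse (11.0% of all tested probes), for 1 every LPR mouse lay below (26.9% of all), and for 6 the groups overlapped. Those 8 include A_55_P2166488, whose MRL signals were not above background. By the brightest probe, every LPR mouse lay above every MRL mouse for 5 of the 10 genes (11.7% of all gene names). For 1 gene every LPR mouse lay below (25.6% of all gene names).

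**Figure D1:**
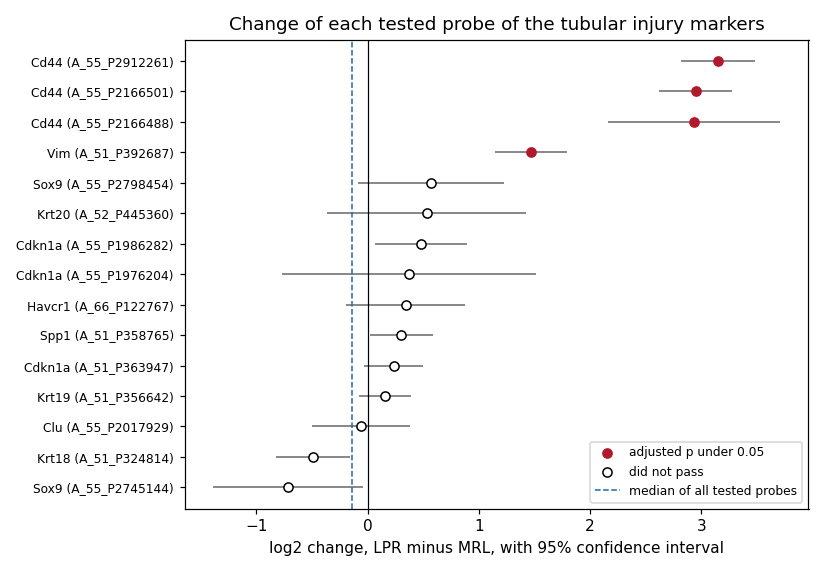
The log2 change (LPR minus MRL) of each of the 15 tested probes, with its 95% confidence interval from limma. Filled points passed an adjusted p under 0.05, and the dashed line is the median of all tested probes, -0.14. The 4 filled points belong to Cd44 and Vim. The point of Cd44 probe A_55_P2166488 is a fitted value, since its signal was not above background in MRL mice.

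The arrays were of similar quality, but LPR 1 was brighter. Before scaling, its 75th percentile of intensity was 942, against 706 to 759 on the other arrays. On the MRL arrays 69.6% to 70.6% and on the LPR arrays 70.7% to 73.5% of the spots were well above background, and 0 spots were saturated. The arrays shared 1 slide, of which LPR 2 and LPR 3 occupied a row of their own, while LPR 1 lay in the row of the MRL mice. The 23 genes of differentiated tubules that were measured, among them Umod, Aqp2 and Lrp2, were above background on all 6 arrays. Of the 2 probes of Fas, the brighter A_55_P2091676 had a log2 change of -0.47 that did not pass (limma, adjusted p = 0.234), and A_52_P73385 exceeded the background in all 3 LPR mice and in 0 MRL mice and was called higher (adjusted p = 0.0338 in limma, lost with signals raised to the detection limit, adjusted p = 0.112). Where these probes lie relative to the lpr mutation was not analysed here, so they do not check the genotype.

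Cd44 was the marker with the largest rise. Its 3 probes are assigned to the transcript NM_009851 on the minus strand of chromosome 2 (mm9). The 2 that are printed here lie at separate places of the gene. Which forms of the Cd44 transcript each of them reads was not analysed, so they need not follow the same RNA. The sequences are those of the deposited array files, 60 bases each, 5′ to 3′ and without capitals, since no part of them was singled out.
Cd44, A_55_P2166488, chr2:102677971-102678030: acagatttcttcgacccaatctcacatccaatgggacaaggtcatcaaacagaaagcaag
Cd44, A_55_P2166501, chr2:102654278-102654337: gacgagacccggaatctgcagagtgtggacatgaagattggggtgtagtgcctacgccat

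For the brightest Cd44 probe, A_55_P2912261 (chr2:102652758-102652817), the log2 signal relative to the 75th percentile of the array was -3.93, -4.06 and -4.03 in MRL 1 to 3 and -0.77, -1.12 and -0.67 in LPR 1 to 3. The lowest LPR mouse thus stood far above the highest MRL mouse. The log2 change was 3.15 (standard error 0.14), an 8.88-fold rise with a 95% confidence interval of 7.04 to 11.2 (limma, adjusted p = 3.21e-05). Probe A_55_P2166501 gave -4.49, -4.17 and -4.60 in MRL mice and -1.55, -1.50 and -1.37 in LPR mice. Again the groups were well apart, and the log2 change of 2.95 (standard error 0.14) was a rise of 7.73-fold with an interval of 6.15 to 9.71 (adjusted p = 3.83e-05 in limma). Probe A_55_P2166488 exceeded the background in all 3 LPR mice, at -5.23, -4.84 and -4.58, but in 0 of 3 MRL mice, at -7.09, -8.20 and -8.17. Here the MRL signals are only upper limits, and the rise of the mean signal of this probe was at least 2.10-fold (adjusted p = 0.00174 in limma for the fitted change of 2.93, and 0.00688 with signals raised to the detection limit, where the change was 1.07). The call of this probe was lost with normexp background correction (log2 change 0.35, adjusted p = 0.0506), while the brighter probes passed under each of the 19 alternatives, with log2 changes of 2.16 to 3.28 and 1.65 to 3.07.

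Vim, the gene of the intermediate filament vimentin, was measured by A_51_P392687 (NM_011701, chr2:13504232-13504291, plus strand, mm9). Its log2 signal was 1.61, 2.02 and 1.86 in MRL mice and 3.41, 3.23 and 3.25 in LPR mice. All LPR mice were above all MRL mice, and within the LPR group the values lay closer together (3.30 ± 0.10, SD, n = 3) than within the MRL group (1.83 ± 0.21, SD, n = 3). The rise was 2.77-fold with an interval of 2.22 to 3.46 (log2 change 1.47, standard error 0.14, adjusted p = 0.000693 in limma). Under the 19 alternatives the log2 change of Vim was 1.36 to 1.58, and it passed in each.

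Most of the leukocyte markers and 6 of the 10 fibroblast and mural markers were called higher, as Vim and Cd44 were. Of the endothelial markers, 0 of 4 were. Of 18 leukocyte markers, 15 were higher in LPR mice and 0 were lower, with a median log2 change of 2.83. Their summed signal, in units of the 75th percentile of the array, was 42.6 to 52.6 in MRL mice and 166 to 180 in LPR mice, and 17 of the 18 were above background on all 6 arrays. The CD3 chain genes Cd3g and Cd3d had the largest rises, 17.7-fold and 17.6-fold, and the tetraspanin gene Cd53 rose by 13.4-fold. The smallest changes that passed were those of Cd4 (0.53), Csf1r (0.55), Cd79a (1.88) and Cd3e (1.89), all on the log2 scale. Ptprc, which encodes the leukocyte antigen CD45, did not pass by its brightest probe (log2 change 0.39, adjusted p = 0.137 in limma), but 5 of its 6 tested probes were higher. Among those 5, A_55_P2716271 and A_55_P2716286 were above background in 0 MRL mice and were tested through the LPR mice alone. Itgam and Cd8a did not pass (log2 changes -0.086 and 0.024). Of 10 fibroblast and mural markers, 6 were higher and 0 lower, with a median of 0.65 and a summed signal of 39.9 to 44.4 in MRL mice and 71.2 to 76.0 in LPR mice. Among them the collagen genes Col1a1, Col3a1 and Col1a2 had log2 changes of 2.37, 1.43 and 1.08, Dcn of 0.85, and the contractile genes Tagln and Acta2 of 0.70 and 0.61. Pdgfrb, Pdgfra, Myh11 and Rgs5 did not pass (0.32, 0.24, 0.031 and -0.065). Of the endothelial genes Kdr, Emcn, Cdh5 and Pecam1, Kdr was lower (log2 change -0.57) and the others did not pass (-0.38, 0.068 and 0.18). The part of these cells in the rises of Vim and Cd44 was not tested, and in whole kidney a change in the number of cells of a type and in the RNA per cell cannot be told apart.

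Within the slide row that held LPR 1 and the 3 MRL mice, LPR 1 exceeded the MRL mean by 1.58 for Vim and by 3.23, 2.87 and 2.58 for the Cd44 probes A_55_P2912261, A_55_P2166501 and A_55_P2166488 (log2 scale). With the slide row in the limma fit the strains are compared by LPR 1 alone against the 3 MRL mice, and the lone LPR mouse is assumed to vary like the other mice. The adjusted p values of this fit were 0.0117 for Vim and 0.00154, 0.00217 and 0.0398 for these Cd44 probes.

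**Figure D2:**
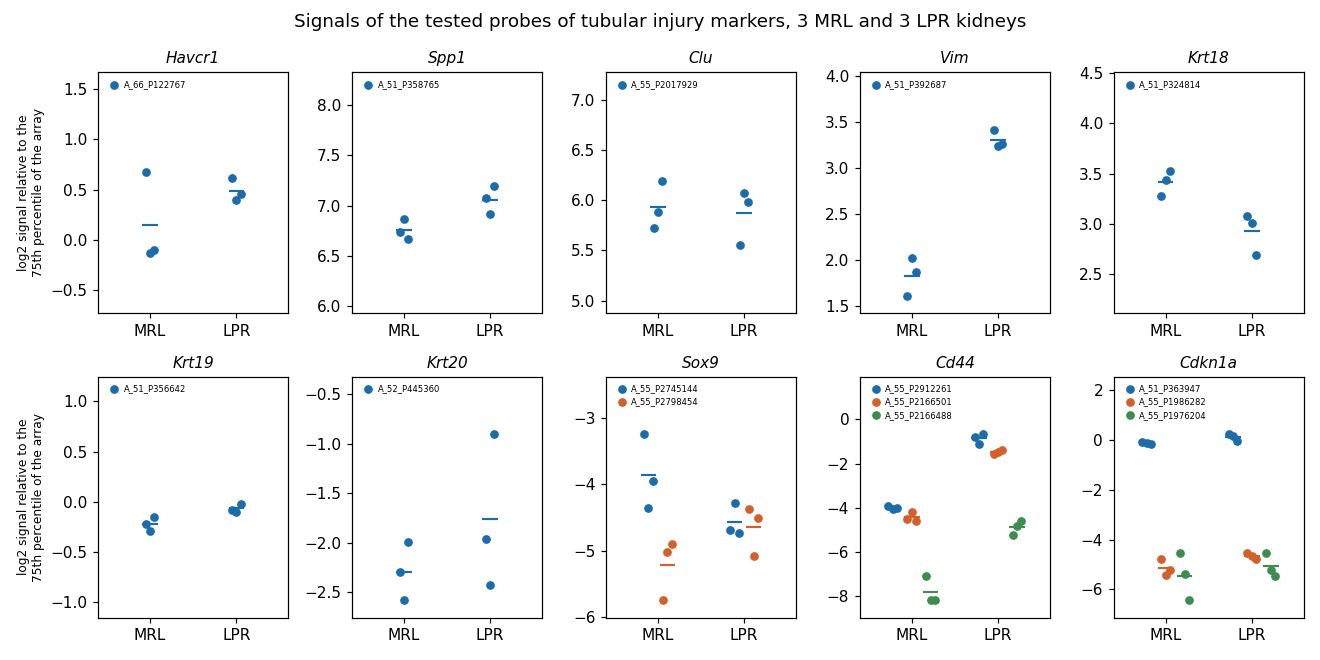
The log2 signal of each tested probe of the 10 markers, relative to the 75th percentile of its array, with 1 point per mouse and a line at the mean of 3 mice. Each panel has its own range of the vertical axis, and colours mark the probes of a gene. The groups are well separated for Vim and Cd44, MRL 1 stands above the other MRL mice for Havcr1, and LPR 3 above the other LPR mice for Krt20.

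Havcr1, the gene of the kidney injury molecule KIM-1, did not pass the threshold. It was measured by 1 probe, A_66_P122767 (NM_001166631, chr11:46592056-46592115, plus strand, mm9). The sequence of the probe is shown because the finding for this most used of the tubular injury markers rests on these 60 bases alone.
Havcr1, A_66_P122767: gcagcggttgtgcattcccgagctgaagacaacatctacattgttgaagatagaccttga

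The log2 signal of Havcr1 was 0.67, -0.13 and -0.10 in MRL 1 to 3 and 0.62, 0.40 and 0.46 in LPR 1 to 3. MRL 1 was the highest of all 6 mice, so that the groups overlapped, while MRL 2 and MRL 3 lay below every LPR mouse. The log2 change was 0.34 (standard error 0.23, adjusted p = 0.340 in limma), with an interval on the fold scale of 0.877 to 1.84. A doubling of Havcr1 is outside this interval as it stands, with an upper limit of 0.878 on the log2 scale. Read against the median of all tested probes, -0.14, a doubling is not excluded. Without MRL 1 the log2 change was 0.61 and passed (adjusted p = 0.0440 in limma). Over the 19 alternatives it was 0.21 to 0.61, and it passed in this 1 alone.

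The other genes of the TIM family, to which Havcr1 belongs, are known from immune cells. Havcr2 (TIM-3), an inhibitory receptor of T cells and myeloid cells, was 6.24-fold higher in LPR mice (log2 change 2.64, adjusted p = 0.00202 in limma). Timd4, a phosphatidylserine receptor of macrophages, exceeded the background in 0 of 3 MRL mice, and its mean level in LPR mice was at least 1.17-fold higher. The call of Timd4 rests on MRL signals at background (adjusted p = 0.0376 in limma), and was lost with signals raised to the detection limit (log2 change 0.22, adjusted p = 0.249 in limma). The brighter of 2 Timd2 probes did not pass (log2 change 0.97, adjusted p = 0.0556 in limma), and the dimmer, A_55_P2647724, did (log2 change 0.64, adjusted p = 0.0469 in limma).

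Among the secreted markers, Spp1 and Clu were not called. The phosphoprotein gene Spp1 (A_51_P358765, NM_009263, chr5:104869788-104869847, plus strand, mm9) gave 6.73, 6.87 and 6.67 in MRL mice and 7.08, 6.91 and 7.19 in LPR mice. The groups did not overlap, but LPR 2 and MRL 2 were only slightly apart. The log2 change of Spp1 was 0.30 (standard error 0.12, adjusted p = 0.140 in limma), a fold of 1.24 with an interval of 1.02 to 1.50. Spp1 did not pass in any of the 19 alternatives, with log2 changes of 0.24 to 0.38. The chaperone gene Clu (A_55_P2017929, NM_013492, chr14:66600325-66600384, plus strand, mm9) gave 5.72, 5.88 and 6.20 in MRL mice and 5.55, 6.08 and 5.99 in LPR mice. Here the groups were interleaved, with LPR 1 lowest and MRL 3 highest, and the log2 change was -0.060 (standard error 0.19, adjusted p = 0.852 in limma). The interval of the fold for Clu was 0.706 to 1.30.

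Of 15 tested genes of receptors and ligands shared with osteopontin and CD44, 5 were higher and 2 lower in LPR mice, with a median log2 change of 0.095. The integrin chains Itga4, Itgb3, Itga5 and Itga9, which take part in receptors for osteopontin or fibronectin, had log2 changes of 2.63, 1.02, 0.77 and 0.77. All 5 tested probes of Itga4 were higher. Of these, A_52_P545336, A_55_P2605497 and A_66_P140103 were above background in 0 MRL mice, so they were tested through the LPR mice alone. Has2, a hyaluronan synthase, exceeded the background in 0 of 3 MRL mice, and the rise of its mean was at least 1.34-fold. Its call rests on MRL signals at background (adjusted p = 0.0124 in limma), and was lost with signals raised to the detection limit (log2 change 0.43, adjusted p = 0.113 in limma). The genes that were lower were Itgav, the alpha V chain (log2 change -0.50, 1 of its 4 tested probes), and Rdx, which encodes the membrane linker radixin (log2 change -0.61).

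None of the 3 keratin markers was called. Krt18, the type I keratin that pairs with Krt8 in simple epithelia (A_51_P324814, NM_010664, chr15:101862341-101862400, plus strand, mm9), gave 3.28, 3.43 and 3.53 in MRL mice and 3.08, 3.01 and 2.69 in LPR mice. It was the single marker for which every LPR mouse lay below every MRL mouse. The log2 change was -0.49 (standard error 0.14, interval -0.82 to -0.16) and did not pass (adjusted p = 0.0673 in limma). With normexp background correction (log2 change -0.48, adjusted p = 0.0190) and with an intensity trend in limma (adjusted p = 0.0289) Krt18 was called lower. Its partner Krt8 had log2 changes of -0.25 and -0.33 by its 2 probes, neither of which passed.

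Krt19, a keratin of ducts and of immature epithelium (A_51_P356642, NM_008471, chr11:100002392-100002451, minus strand, mm9), gave -0.22, -0.29 and -0.15 in MRL mice and -0.08, -0.10 and -0.02 in LPR mice. The groups were apart by a small difference, which was not called (log2 change 0.16, standard error 0.10, adjusted p = 0.318 in limma). Krt20, a keratin of differentiated gut epithelium and urothelium that also appears in injured tubules (A_52_P445360, NM_023256, chr11:99289776-99289835, minus strand, mm9), gave -2.30, -2.58 and -1.99 in MRL mice and -1.96, -2.42 and -0.90 in LPR mice. LPR 3 stood above the other 5 mice, which overlapped. The log2 change of Krt20 was 0.53 (standard error 0.38, adjusted p = 0.377 in limma), and without LPR 3 it was 0.10. Of 8 other keratin and intermediate filament genes, the basal cell keratin Krt14 was higher (log2 change 1.06, adjusted p = 0.00709 in limma), Krt23 was lower (log2 change -0.67, adjusted p = 0.0349 in limma) and 6 did not pass. With the slide row in the fit both calls were lost (Krt14 1.01, adjusted p = 0.0865, and Krt23 -0.39, adjusted p = 0.238, in limma). The median of these 8 was 0.040.

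Sox9 was measured by 2 probes of the transcript NM_011448 on chromosome 11 (mm9, plus strand), which gave log2 changes of opposite sign. The sequence of the brighter probe is shown, as the 1 of the pair that lies nearer to the start of the gene.
Sox9, A_55_P2745144, chr11:112646642-112646701: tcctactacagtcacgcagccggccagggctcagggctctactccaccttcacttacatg

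Sox9 probe A_55_P2745144 gave -3.24, -4.35 and -3.96 in MRL mice and -4.69, -4.29 and -4.73 in LPR mice. MRL 1 was highest, and LPR 2 overlapped with MRL 2. The log2 change by this probe was -0.72 (standard error 0.28, adjusted p = 0.146 in limma). The other Sox9 probe, A_55_P2798454 (chr11:112647560-112647619), gave -5.75, -5.01 and -4.89 in MRL mice, of which 2 of 3 were above background, and -4.37, -5.07 and -4.50 in LPR mice. MRL 1 was here the lowest mouse, and LPR 2 again fell among the MRL mice. The log2 change by the latter was 0.57 (standard error 0.28, adjusted p = 0.215 in limma). Neither probe of Sox9 passed under any alternative, each kept its sign, and the difference between them was not tested.

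Cdkn1a was not called by any of its 3 probes on chromosome 17 (mm9, plus strand). The brightest, A_51_P363947 (NM_007669, 29237377 to 29237436), gave -0.10, -0.10 and -0.15 in MRL mice and 0.23, 0.17 and -0.05 in LPR mice. All LPR mice were above all MRL mice, LPR 3 by a small margin, and the fold was 1.18 with an interval of 0.980 to 1.42 (log2 change 0.24, standard error 0.11, adjusted p = 0.206 in limma). Probe A_55_P1986282 (NM_001111099, 29227986 to 29228045) was dim, with -4.79, -5.40 and -5.21 in MRL mice and -4.52, -4.66 and -4.78 in LPR mice. These groups just met without overlap, and the log2 change was 0.48 (standard error 0.17, adjusted p = 0.119 in limma), which passed without MRL 1 (0.65, adjusted p = 0.0497). Probe A_55_P1976204 (29235299 to 29235358), named on the array by an Ensembl transcript, gave -4.52, -5.38 and -6.44 in MRL mice and -4.52, -5.24 and -5.44 in LPR mice. Its groups overlapped throughout, and MRL 3 was below background (log2 change 0.38, standard error 0.48, adjusted p = 0.627 in limma).

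Cdkn1a is a target of p53, and of 17 tested p53 targets and inhibitors of cyclin-dependent kinases 2 were higher and 0 lower, with a median log2 change of 0.058. Cdkn2a, which encodes the inhibitor p16 and the p53 regulator p19Arf, rose by 15.6-fold, from -4.98 ± 0.67 in MRL mice to -1.02 ± 0.15 in LPR mice (SD, n = 3 each, adjusted p = 0.000356 in limma). The dimmer probe of Cdkn2a was also called, but it was above background in 0 MRL mice and was tested through the LPR mice alone. Bbc3, the gene of the death protein PUMA, had a log2 change of 0.62 (adjusted p = 0.0473 in limma). Mdm2, the ubiquitin ligase of p53, did not pass (log2 change -0.21, adjusted p = 0.525 in limma). Under 12 of 19 alternatives the number of these genes that were higher became 1 or 5, and it was 1 without any 1 of the mice apart from LPR 1.

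Of 24 further tested genes of tubular injury, 7 were higher, 1 was lower and 16 did not pass, with a median log2 change of 0.24. Il1f6 (Il36a), a cytokine gene of injured tubules, exceeded the background by its brightest probe in all 3 LPR mice but in 0 MRL mice, a rise of at least 6.04-fold (adjusted p = 0.000361 in limma with signals raised to the detection limit). Its other probe, A_55_P2720030, was higher as well. The metalloproteinase inhibitor gene Timp1 rose by 5.89-fold, the complement gene C3 by 5.59-fold and the adhesion molecule gene Vcam1 by 4.85-fold, with adjusted p of 0.00022, 6.36e-05 and 0.000602 in limma. Lcn2, which encodes the iron carrier lipocalin 2 (NGAL), gave -0.52, 0.11 and -0.24 in MRL mice and 2.43, 1.33 and 2.02 in LPR mice. The lowest LPR mouse was well above the highest MRL mouse, and the log2 change of 2.14 (standard error 0.30) was a rise of 4.41-fold (adjusted p = 0.00483 in limma), with the second probe of Lcn2 also higher. Lgals3, the gene of the lectin galectin 3, had a log2 change of 0.71. Itgb6, an epithelial integrin chain, was lower by both of its probes (log2 change of the brighter -0.85, adjusted p = 0.00545 in limma). These genes were read on the same arrays as the leukocyte markers above, whose part in their rises was not tested.

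Genes of differentiated tubules had a median log2 change of -0.36, against -0.12 over all gene names by their brightest probe. Of the 23 measured, 7 were lower, 0 were higher and 16 did not pass, and for 16 every LPR mouse lay below every MRL mouse (25.6% of all gene names). The largest fall was that of the amino acid carrier gene Slc7a13 (log2 change -2.12, adjusted p = 0.045 in limma), with 0.58, -1.58 and -1.12 in MRL mice and -2.50, -2.84 and -3.13 in LPR mice. MRL 1 was far above the other MRL mice here. The calcium-binding protein gene Calb1 followed with -1.20, then the lactate carrier gene Slc5a12 with -0.84 and the proton pump subunit gene Atp6v1g3 with -0.62. Slc5a2, the glucose carrier gene, had -0.57 and Lrp2 (megalin) had -0.39. The number of lower genes rested on each of the mice, and was 1 to 4 when any 1 of the 6 was left out. Of 8 endothelial and podocyte markers, 1 was lower, the VEGF receptor gene Kdr (log2 change -0.57, adjusted p = 0.0317 in limma), and 7 did not pass.

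**Figure D3:**
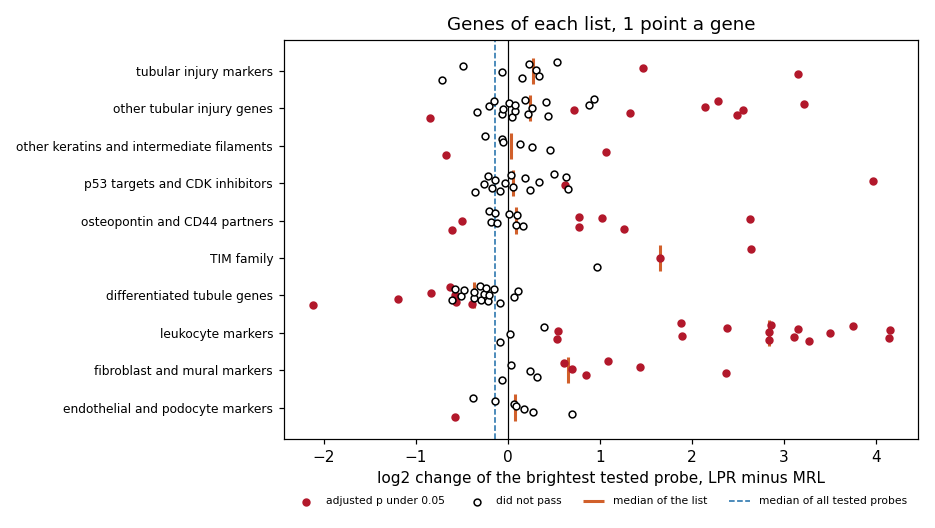
The log2 change (LPR minus MRL) of the brightest tested probe of each gene, with 1 point per gene and a row per list. Filled points passed an adjusted p under 0.05 in limma, short vertical lines are the medians of the lists and the dashed line is the median of all tested probes, -0.14. Leukocyte markers lie furthest to the right and differentiated tubule genes mostly left of the dashed line. The tubular injury markers other than Vim and Cd44 lie on both sides of it and did not pass. The points of Il1f6, Has2 and Timd4 are fitted values with no MRL array above background.

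The promoters of the pair of genes that rose are shown because they can be set side by side. They are the 250 bases before the start of the gene from RefSeq (GRCm38.p6), 5′ to 3′ on the strand of the gene and in a later build than the probe coordinates, with matches to the AP-1 motif TGANTCA, the TATA box TATAAA and the NF-kB motif in capitals. Both strands were searched.
Vim, chr2:13574061-13574310, plus strand: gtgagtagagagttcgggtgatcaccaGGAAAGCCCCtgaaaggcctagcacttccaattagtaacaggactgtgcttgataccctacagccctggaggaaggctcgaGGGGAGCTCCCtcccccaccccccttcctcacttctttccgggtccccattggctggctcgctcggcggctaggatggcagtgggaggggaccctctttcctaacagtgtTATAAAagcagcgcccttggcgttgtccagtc
Cd44, chr2:102901666-102901915, minus strand: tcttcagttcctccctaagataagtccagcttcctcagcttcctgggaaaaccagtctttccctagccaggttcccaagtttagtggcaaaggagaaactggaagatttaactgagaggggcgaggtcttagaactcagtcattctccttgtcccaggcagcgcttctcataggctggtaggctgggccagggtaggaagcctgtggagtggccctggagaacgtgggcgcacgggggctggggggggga

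The promoter of Vim held a TATA box that began 32 bases before the start and 3 matches to the NF-kB motif, of which 2 overlap and are printed as 1 run of capitals. That of Cd44 held 0 matches to these 3 motifs and to the GC box GGGCGG. Among 32851 promoter windows of this length, 12.4% held TATAAA, 7.25% the NF-kB motif, 6.75% TGANTCA and 32.7% GGGCGG. Windows were at hand for 7 of the 10 genes, and not for Clu, Krt19 and Sox9. The AP-1 motif was in none of the windows of these 7 genes. A match to the NF-kB motif was also in the window of Krt18, which was not called, TATAAA was in those of Krt20 and of 1 of 2 Spp1 starts, and GGGCGG was in that of 1 of 2 Cdkn1a starts. A match is a run of letters and not a measured binding site.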

How the data were processed

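TA was performed on the kidneys of 3 MRL and 3 LPR mice with 1 single-colour Agilent array each. For each spot the authors deposited an intensity from Feature Extraction 12.0.3.1, background-subtracted and not normalized between arrays. The authors also deposited their ratio to the 75th percentile of each array, used as an alternative. From the log2 intensities the 75th percentile over the non-control spots of each array was subtracted, and spots of 1 probe were averaged, without those marked as outliers (73 to 90 per array). Probes well above background on at least 3 of 6 arrays entered 1 fit in limma (version 3.58.1, R 4.3.3), and p-values were adjusted over all of them by Benjamini-Hochberg with a threshold of 0.05. The number of arrays limits the precision. The brightest tested probe stands for a gene in a list. Where no MRL array was above background, a lower bound is given, with each MRL signal raised to the detection limit of its array, the lowest signal among spots well above background. This bound compares the group means and carries no sampling error, so by itself it does not exclude the absence of a rise. Signals of different probes were set against each other only to find the brightest probe of a gene. They were added only in the summed signals of the lists, in which bright probes weigh most.

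The markers and lists were chosen with earlier results of these data known. Of the lists, the 4 largest and 4 smallest changes among the genes that passed are named, all genes of lists under 5 genes, and Lcn2, Il1f6, Krt8, Mdm2 and Ptprc. Some genes that this rule names are not reported here but are counted in the lists. Umod and Aqp2 were added for the tissue and Fas as the mutated gene. The leukocyte, fibroblast, mural and endothelial markers that did not pass were also named. Probe coordinates are those of mm9, for which no exon annotation was used here. Alternatives were other background corrections, scalings, filters, blocks and tests, and leaving out each mouse. The limma fit was tested on simulated data, and the other steps were not.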

Additional observations from a re-analysis of the deposited data

How the results depend on the processing

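Of the 15 probes of the tubular injury markers, 4 were higher in LPR mice, and this number was 3 to 6 under 19 alternatives, with 2 or 3 genes. It was 6, with 3 genes, without MRL 1, when Havcr1 and a dim Cdkn1a probe were added. The number of lower probes and of lower genes was 0, and became 1 (Krt18) with normexp background correction and 1 with an intensity trend, and the cause was not tested. Signs turned only for values that were not called. Cdkn1a probe A_55_P1976204 was -0.034 with normexp background correction, and lay between -0.12 and 0.84 when a mouse was left out (-0.12 without MRL 3). Clu lay between -0.17 and 0.099 when a mouse was left out (0.072 without MRL 3 and 0.099 without LPR 1).

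With the replicate number as a block, 4 probes and 2 genes were higher and 0 lower, with Vim at 1.47 (adjusted p = 0.00895 in limma), and the block changed no call of a marker. The correlation of deviations was 0.115, 0.020 and 0.0052 for mice with the same number, and -0.067 to 0.051 for mice with different numbers. With 3 mice per group these values cannot decide whether the numbers pair the mice. In the methods' test on log2 values, 6 of the 15 probes were higher and 1 was lower at a p under 0.05 before adjustment, and after it 4 passed.

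Over all probes, 2606 were higher (1458 to 2881 under the alternatives) and 2462 lower (463 to 4498), with the fewest of each with the slide row as a block. With 1 mouse left out, the number of lower probes was 760 to 2269, and it fell by over 1.5 times without each mouse apart from LPR 2. Among the lists, the number of lower differentiated tubule genes was 1 to 11 under the alternatives, that of higher p53 targets and inhibitors 1 to 5, of higher further injury genes 5 to 9, of higher osteopontin and CD44 partners 2 to 5, of higher leukocyte markers 12 to 15 and of higher fibroblast and mural markers 3 to 6. With the slide row as a block, which leaves LPR 1 alone against the MRL mice, the higher genes numbered 6 of the further injury genes, 2 of the osteopontin and CD44 partners, 12 of the leukocyte and 3 of the fibroblast and mural markers, the lower tubule genes numbered 3, and the falls of Itgb6, Itgav, Rdx and Kdr were lost. The fall of Krt23 was lost without each mouse apart from LPR 1, and 1 in place of 2 osteopontin and CD44 partners was lower when any 1 of the 6 mice was left out. In the TIM family 1 gene in place of 2 was higher without MRL 3 or any LPR mouse. Kdr was lost without each mouse apart from LPR 2.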
